A study of Mus musculus with 2931 samples.

Results

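Venous endothelial cells and arterial endothelial cells of the class that the authors named Arterial EC I were compared within the same mice, in animals that breathed normal air. Endothelial cells line the vessels, and those of veins and arteries differ in the genes they express. The cells were taken by the authors' own subtype labels, and 150 venous and 72 arterial I cells were found among 2403 normal-air cells and 2931 cells in all. The labels were made by the authors on the same cells, so a gene that shaped a label differs by construction. The differences below therefore describe the labelled cells and are no test that the classes exist.

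Endothelial cells of the distal mouse lung were sorted and sequenced 1 cell at a time, with reads counted over whole transcripts. Mice in normal air were sampled before birth at E18.5 and after birth on days P1, P7 and P21, and further mice at P7 had been kept in hyperoxia, with 1 female and 1 male mouse name per group. The labels give no strain, genotype or oxygen level, and leave unsaid if a mouse name is a single animal or a pool, so n counts mouse names and the p-values measure the spread between them. The study's title speaks of endothelial diversity during early growth of the lung and of its sensitivity to injury.

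Arteries and veins of the embryo take on separate identities while the vessels form. In arterial endothelium, signalling through Notch receptors and their ligand Dll4 switches on Hey genes, and the membrane ligand ephrin-B2 is made. In venous endothelium the nuclear receptor COUP-TFII, the product of Nr2f2, is known to hold this programme down, and the receptor EphB4 is made. In the lung, arteries carry blood poor in oxygen towards the capillaries and veins carry it back to the heart.

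Of the 8 normal-air mice, 6 had at least 4 cells of each label and entered the comparison, namely both mice of each age from E18.5 to P7, with 71 arterial I cells and 4 to 16 of them in a mouse. The smallest class was the male P7 mouse, with 4 arterial I cells. At P21 the female mouse had 1 arterial I cell and the male mouse none, so P21 entered no test. The summed reads of a class ran from 536433 to 58800130 over these mice. Median reads per cell were 848500 in venous and 574875 in arterial I cells. In each of the 6 mice the cells of both labels from the CD31 gate (CD31 is a surface protein of endothelium) shared 1 code in their names, DC and a number. The labels do not say what this code stands for. The female P7 mouse also had 3 venous cells and 1 arterial I cell from a gate labelled mesench, with another code. With CD31-gate cells alone 94 genes were called, all of them among the 97 called below. Levels are given as CPM, reads of a gene per 1000000 reads of the class sum of a mouse.

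Marker genes were set beside the labels. The labels were made on the same cells and the lists chosen with earlier results of these data known, so agreement is no test. The summed level of 12 arterial markers was higher in the arterial I cells of 6 of 6 mice, at 5674 to 9150 CPM against 1176 to 5490 CPM in venous cells. The sum of 12 venous markers was higher in venous cells in 5 of 6 mice, at 2321 to 7398 CPM against 298.3 to 2670.01 CPM. The exception was the male P1 mouse. Cell by cell, the marker sum of its own label was the higher one in 87.97% of venous and 98.6% of arterial I cells. The arterial list holds Fbln5, whose mean was higher in venous cells, and Jag1, whose means differed little between the classes. Markers of other tissues had low medians over mice in both classes, at most 15.4 CPM for the summed mural, fibroblast, epithelial, leukocyte, erythroid and mesothelial lists. The highest sum in 1 mouse was 147.3 CPM, for the epithelial list in arterial I cells. Markers of other endothelial classes were not low. The 11 capillary markers summed to 3265 to 5836 CPM in venous and 1822 to 5593 CPM in arterial I cells. The 7 lymphatic markers summed to 1688 to 3027 CPM and 117.4 to 3183 CPM. The 7 cardiac muscle markers summed to 3.89 to 30.2 CPM in venous and 0 to 0.861 CPM in arterial I cells, higher in venous cells in 6 of 6 mice. Myl7, Tnnt2, Actc1, Nppa and Tnni3 had 0 reads in arterial I cells, and what part these markers have in the venous values was not tested.

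Across all genes, 97 of 9773 tested were called different (0.993%), at an adjusted p under 0.05 in edgeR's quasi-likelihood test with the mouse as a block. More genes were called higher in venous cells, 68 (0.696%), than in arterial I cells, 29 (0.297%). Of the 68, 65 lay on the venous side in all 6 mice, the exceptions being Cxcl1, Limch1 and Hs3st1. Of the 29, 28 lay on the arterial side in all 6 mice, the exception being Wfdc1. The levels of the classes did not overlap over the 6 mice in 54 of the 68 and 20 of the 29, against 1.91% of all genes tested. Many calls depended on the fit: 33 of the 97 were kept in each of the 13 distinct alternative fits that tested the gene, and of the 23 called genes in the lists below 7 were (Ace, Anxa2, Cxcl12, Efnb2, Mfap5, Nr2f2 and Sox17). A fit without 1 mouse also has fewer mice, so a call lost there need not rest on that mouse. Calls that were lost are given beside their genes. No single cell gave over 46.9% of a called gene's reads in its higher class. Among the venous genes these shares were largest for Pcdh7, Cxcl1, Rasd2 and Fndc1. Among the arterial genes they were largest for Stc1, Plat and Cxcr4, at up to 34.6%. The median size of the fitted log2 difference was 3.19 for the arterial genes and 9.69 for the venous genes. The venous value was 9.69 again with genes of 0 reads set to their bound. In these sums the arterial genes were mostly graded and the venous genes mostly near absence in the other class. Over the 6 mice together arterial I cells and their reads were fewer, so sums near 0 come more easily in that class. Cell by cell, the own marker sum was also the higher one less often in venous cells, at 87.97% against 98.6%. The arterial list behind these shares holds Fbln5, whose mean was higher in venous cells. What part the numbers of reads and these shares have in this contrast was not tested. Lbp, Moxd1, Mmp16, Gxylt2 and Lpcat2 had 0 reads in the 71 arterial I cells. Where a class has hardly any reads the fitted value depends on the small count that edgeR adds, so levels come first below. Over all genes tested, the median log2 difference (venous minus arterial I) was 0.45.

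**Figure D1:**
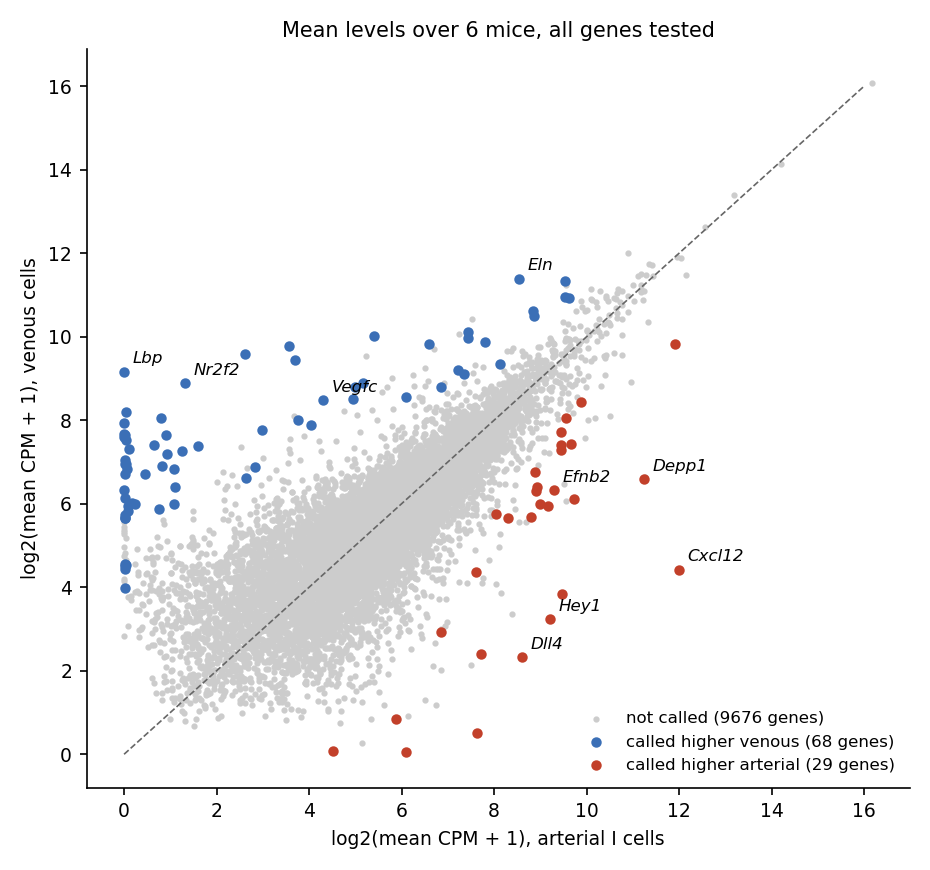
Mean level of every tested gene in arterial I cells (x axis) and venous cells (y axis), each as log2 of the mean CPM over 6 mice plus 1, with the dashed line at equal levels. Many of the 68 genes called higher in venous cells (blue) gather at the left edge, where the arterial level is near 0. Others, such as Mfap2, Anxa2 and Ier3, have high arterial levels and lie far from that edge. The 29 called higher in arterial I cells (red) lie below the line over a wide range of venous levels.

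Among the Notch genes, the ligand Dll4 and the target Hey1 were called higher in arterial I cells, and no member was called higher in venous cells, with 15 of 18 members tested. Dll4 (chr2:119325784-119335962, positions here and below from GENCODE M21 on GRCm38) lay between 340 and 461.96 CPM in arterial I cells, with a median of 387.7, and between 0 and 12.1 CPM in venous cells, with a median of 0.826. Every arterial value was above every venous value, and the former varied little between mice, with an SD of 43.6 CPM (n = 6). The fitted difference was -8.91 ± 1.50 on the log2 scale (SE), with an adjusted p of 0.0141 by edgeR. Hey1, a transcriptional repressor switched on by Notch, had 215.3, 686 and 959 CPM as its lowest, median and highest arterial value and 0, 1.06 and 30.7 CPM in venous cells. These ranges did not overlap either, and the adjusted p by edgeR was 0.0238 at a log2 difference of -8.57 ± 1.56 (SE). Without the female E18.5 mouse both calls were lost, at adjusted p values by edgeR of 0.0526 for Dll4 and 0.0712 for Hey1. The Hey1 call was also lost without the female P1, the male P1 or the male P7 mouse, at 0.0645, 0.0624 and 0.0510 by edgeR.

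The other Notch genes did not pass the adjusted threshold. The ligand Jag2 averaged 272.6 ± 218.2 CPM in arterial I and 30.3 ± 14.3 CPM in venous cells (SD, n = 6), higher in arterial I cells in 6 of 6 mice, with an adjusted p of 0.0516 by edgeR. The receptor Notch1 was at 494.6 ± 142.3 CPM against 188.03 ± 92.3 CPM (SD, n = 6), again on the arterial side in 6 of 6 mice, with an adjusted p of 0.102 by edgeR. Notch4 averaged 253.7 ± 190 CPM against 52.2 ± 52.1 CPM (SD, n = 6) and lay on the arterial side in 5 of 6 mice. Notch2 went the other way, with 28.3 ± 10.99 CPM in venous and 5.87 ± 7.04 CPM in arterial I cells (SD, n = 6), in 6 of 6 mice, at an adjusted p of 0.620 by edgeR. Jag1, also a ligand, was at 372.5 ± 195.6 CPM in venous and 435.7 ± 638 CPM in arterial I cells (SD, n = 6), where the male P1 mouse alone had 1735 CPM. The median log2 difference of the 15 tested members was -0.22, against 0.45 for all genes.

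Ephrin-B2 and its receptor differed in size of contrast. Efnb2 (chr8:8617434-8661242) lay between 313.1 and 1074 CPM in arterial I cells (median 604) and between 12.6 and 157.7 CPM in venous cells (median 80.4). The ranges did not overlap, and the log2 difference was -3.21 ± 0.40 (SE) with an adjusted p of 0.00171 by edgeR, and the call was kept in all 13 alternative fits. Ephb4, which encodes its venous receptor EphB4, was higher in venous cells in 6 of 6 mice, at 328.6 ± 105.1 CPM against 155.6 ± 52.3 CPM (SD, n = 6) with no overlap, and was not called, with an adjusted p of 0.267 by edgeR. Efna1, a ligand of the other ephrin class, had 998 ± 668 CPM in arterial I and 188.9 ± 106.5 CPM in venous cells (SD, n = 6), with an adjusted p of 0.0589 by edgeR. Of the 8 tested members of this list, Efnb2 was the called one.

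The connexins, whose proteins form the gap junctions between vessel cells, were not called, and 2 of the 4 tested, Gja4 and Gja5, had an unadjusted p under 0.05 (9.51% of all genes did). Gja4 lay between 1470 and 3876 CPM in arterial I cells and between 0 and 381.8 CPM in venous cells, with no overlap and an adjusted p of 0.104 by edgeR. Its venous values were 0 CPM in both E18.5 mice and above 0 in the 4 mice of P1 and P7. Gja5, a connexin of arterial endothelium, had a median of 342.6 CPM in arterial I and 2.57 CPM in venous cells. One library broke the order: the male P7 mouse had 3.73 CPM in its 4 arterial I cells and 4.09 CPM in its venous cells, and the adjusted p was 0.217 by edgeR. Gja1 averaged 48.04 ± 55.7 CPM in arterial I and 1.25 ± 1.75 CPM in venous cells (SD, n = 6), on the arterial side in 3 of 6 mice, and Gjc1 48.7 ± 51.5 CPM and 78.8 ± 41.7 CPM (SD, n = 6), on the venous side in 4 of 6.

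**Figure D2:**
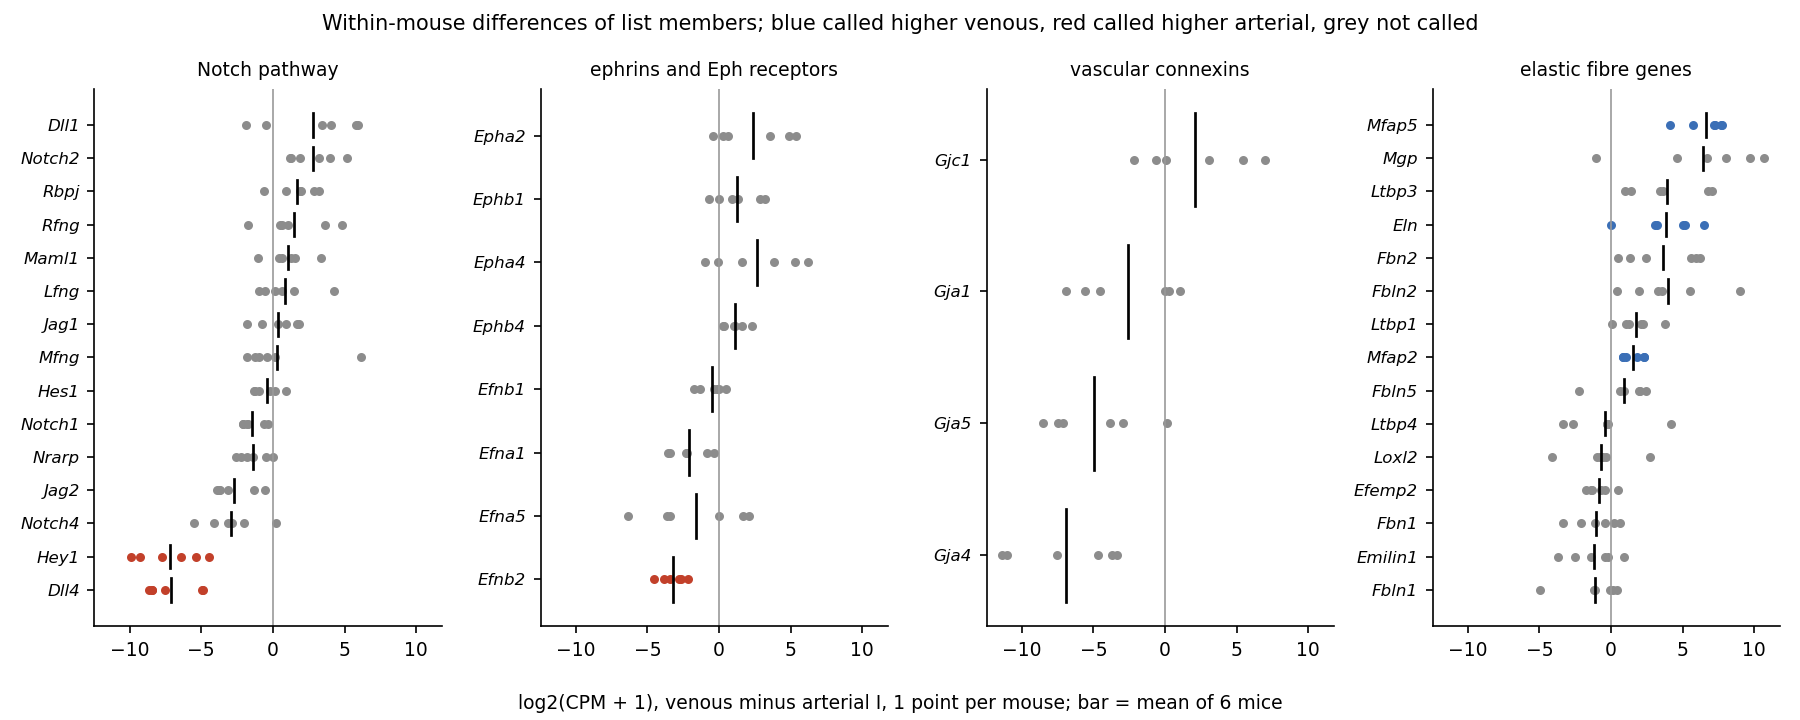
Difference of log2(CPM + 1), venous minus arterial I, for the tested members of 4 gene lists, with 1 point per mouse and a bar at the mean of 6 mice; blue and red mark genes called higher in venous and arterial I cells, grey genes not called. Dll4, Hey1 and Efnb2 lie to the left of 0 in all 6 mice, and Mfap5 and Mfap2 to its right.

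Chemokine genes were split between the classes. Cxcl12, the ligand of the receptors CXCR4 and ACKR3, lay between 1221 and 8232 CPM in arterial I cells (median 3786) and between 0 and 67.2 CPM in venous cells (median 15.3). All arterial values were far above all venous values, with a log2 difference of -8.36 ± 0.83 (SE) and an adjusted p of 0.000469 by edgeR. Ackr3, which encodes a scavenging receptor for that ligand, went the opposite way, with 220.8, 742 and 2944 CPM as lowest, median and highest venous value and 0, 25.3 and 126.8 CPM in arterial I cells, at an adjusted p of 0.0261 by edgeR. Its classes did not overlap, but the call was lost without the mouse block, at 0.132 by edgeR, and without the female E18.5, male P1 or male P7 mouse, at 0.0671 to 0.0799. Cxcl1, a chemokine that attracts neutrophils, was called higher in venous cells with an adjusted p of 0.0254 by edgeR, but 1 mouse (female E18.5) had 0 CPM in both classes and the others had 13.3 to 385.7 CPM in venous and at most 6.67 CPM in arterial I cells. That call was lost without the block, at 0.127 by edgeR, and without the male E18.5, male P1, female P7 or male P7 mouse, at 0.0547 to 0.116. Of this list of leukocyte adhesion and chemokine genes, 2 of 10 tested members were called higher venous and 1 higher arterial. The adhesion genes Selp, Sele and Vcam1 and the venular chemokine receptor Ackr1 did not pass the filter on low counts and were not tested, and Ackr1 had 163.3 and 7.60 CPM in the venous cells of the P1 mice and 0 in those of the other 4 mice.

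Transcription factors were called in both directions, 2 on each side of 28 tested. Sox17, a factor of arterial endothelium, had 292.9, 469.3 and 747 CPM as lowest, median and highest arterial value and 53.002, 68.96 and 150.6 CPM in venous cells. The ranges did not overlap, the log2 difference was -2.52 ± 0.39 (SE), and the adjusted p was 0.00853 by edgeR. Mecom, a zinc finger factor, lay between 113.7 and 589 CPM against 13.96 to 97.4 CPM, also without overlap, with an adjusted p of 0.0298 by edgeR. Its call was lost without the block, at 0.0968 by edgeR, and without either female mouse of E18.5 and P1 or either male mouse of P1 and P7, at 0.0764 to 0.147. Nr2f2 (chr7:70351944-70366735), which encodes COUP-TFII, was read at 321.1 to 753 CPM in venous cells (median 415.9) and at 0 to 6.90 CPM in arterial I cells (median 0.0421). It was at or near 0 in the arterial I cells of all 6 mice, and its log2 difference was 9.85 ± 1.25 (SE) with an adjusted p of 0.00204 by edgeR. Foxc1, a forkhead factor, averaged 52.3 ± 36.5 CPM in venous cells (SD, n = 6) against a single read in all arterial I cells, a ratio of 2169 with a counting interval (95%) of 389.1 to 85671 and an adjusted p of 0.00708 by edgeR, which was 0.203 without the female P7 mouse. The general endothelial factors Erg, Fli1, Klf2 and Gata2 were not called, and the median log2 difference of the list was 0.34, against 0.45 for all genes.

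Lhx6, a LIM homeobox factor known from interneurons of the brain, was among the genes with the strongest venous contrast. It lay between 103.3 and 338.3 CPM in venous cells (median 193.5) and had 1 read in the arterial I cells of the 6 mice together. The ratio of the pooled levels was 7832, with a 95% counting interval of 1406 to 309372, and the adjusted p by edgeR was 0.000376. The venous cells of the female and male P21 mice, in no test, had 98.8 and 0.483 CPM of Lhx6.

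Promoter sequences of the connexin gene Gja5 and of Nr2f2 are shown because these genes mark the classes, and those of Cxcl12 and Fgl2 because they carry searched motifs; the last pair was chosen after its values were seen. Each is the stretch of 250 bases before a RefSeq start of the gene on GRCm38.p6, written 5′ to 3′ along the gene's strand, with any of 4 motifs in capitals. The motifs, searched on both strands, were TGGGAA (bound by RBPJ, the Notch factor), ACAATG (SOX factors), AGGTCA (a site element of COUP-TF) and CACGTG (an E-box, its own reverse complement), and none overlaps another in these windows. Gja5 lies at chr3:97032152-97032401 (plus strand), Nr2f2 at chr7:70366747-70366996 (minus strand), Cxcl12 at chr6:117168285-117168534 (plus strand) and Fgl2 at chr5:21372423-21372672 (plus strand).
Gja5: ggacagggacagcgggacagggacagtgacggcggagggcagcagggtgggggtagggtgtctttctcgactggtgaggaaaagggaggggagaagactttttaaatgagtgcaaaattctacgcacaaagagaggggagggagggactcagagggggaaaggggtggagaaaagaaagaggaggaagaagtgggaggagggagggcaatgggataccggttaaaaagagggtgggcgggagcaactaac
Nr2f2: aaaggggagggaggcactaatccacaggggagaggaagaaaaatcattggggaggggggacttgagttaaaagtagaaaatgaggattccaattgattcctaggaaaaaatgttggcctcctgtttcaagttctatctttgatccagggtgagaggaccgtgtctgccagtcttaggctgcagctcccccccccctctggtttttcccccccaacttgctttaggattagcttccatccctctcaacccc
Cxcl12: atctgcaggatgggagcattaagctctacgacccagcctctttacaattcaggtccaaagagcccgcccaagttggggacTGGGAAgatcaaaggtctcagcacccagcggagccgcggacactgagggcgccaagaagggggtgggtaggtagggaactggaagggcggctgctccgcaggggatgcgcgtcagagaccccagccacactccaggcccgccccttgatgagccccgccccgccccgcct
Fgl2: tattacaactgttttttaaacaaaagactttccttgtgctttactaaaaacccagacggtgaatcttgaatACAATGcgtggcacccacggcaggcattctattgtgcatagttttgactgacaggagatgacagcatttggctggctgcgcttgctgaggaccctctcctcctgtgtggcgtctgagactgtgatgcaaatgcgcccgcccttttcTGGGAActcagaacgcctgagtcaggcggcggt
In Cxcl12 the letters TGGGAA begin 170 bases before the start, and in Fgl2 they begin 33 bases before it, with ACAATG further upstream. Gja5 and Nr2f2 hold none of the 4 in this window. The table had promoters for 48 of the 68 venous genes (61 windows) and 19 of the 29 arterial genes (26 windows), and has no entry for Hey1 or Slc6a2. TGGGAA was in 13.1% of the venous windows, 19.2% of the arterial windows and 21.6% of all 32851 windows. ACAATG was in 9.84%, 3.85% and 10.7%, AGGTCA in 9.84%, 23.1% and 14%, and CACGTG in 4.92%, 7.69% and 6.02%. These shares describe letters in short windows and say nothing of binding.

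The other arterial genes named by size, consistency and level were of several kinds. Ace, the angiotensin-converting enzyme of the vessel wall, lay between 263.3 and 753 CPM in arterial I cells (median 622) and between 32.7 and 92.3 CPM in venous cells (median 61.9), without overlap. Its log2 difference was -3.19 ± 0.33 (SE), with an adjusted p of 0.000513 by edgeR. Pcsk5, a protease that cleaves pro-proteins, averaged 703 ± 336.3 CPM against 13.3 ± 16.2 CPM (SD, n = 6). Hilpda, a lipid droplet protein induced by low oxygen, averaged 842 ± 408.9 CPM against 67.9 ± 65.9 CPM (SD, n = 6). Both had no overlap between classes, and adjusted p values by edgeR of 0.00238 and 0.00123. Aldh2, the mitochondrial aldehyde dehydrogenase, averaged 504.2 ± 375.8 CPM against 62.7 ± 42.8 CPM (SD, n = 6), higher in arterial I cells within each of the 6 mice, although its ranges overlapped: the male E18.5 mouse had 88.9 CPM in arterial I cells and the female P1 mouse 102.3 CPM in venous cells.

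Arl15, a small GTPase, averaged 194.9 ± 144.4 CPM in arterial I and 19.8 ± 15.3 CPM in venous cells, and Ivns1abp, a kelch protein, 312.3 ± 119.4 CPM and 49.4 ± 37.5 CPM (SD, n = 6). Both were called, with adjusted p values by edgeR of 0.0187 and 0.0255, and each call was lost without the female P1 mouse, at 0.111 by edgeR for both. The Arl15 call was also lost without either P7 mouse, and the Ivns1abp call without the female E18.5 or male P1 mouse. Depp1, a target of FOXO factors, was at 4929 and 7520 CPM in the arterial I cells of the E18.5 mice and at 290.7 to 956 CPM at P1 and P7, against 0 CPM in the venous cells of 4 mice and 39.4 and 532.9 CPM in the other 2. Its adjusted p was 0.0416 by edgeR and rose to 0.514 without the mouse as a block, and its call was lost in 5 of 13 distinct alternative fits, the others being those without the female P1, female P7, male E18.5 or male P7 mouse, at 0.0619 to 0.180. Atp13a3, a polyamine transporter, was at 111.2 to 410.9 CPM in the arterial I cells of 5 mice and at 0.168 CPM in those of the male E18.5 mouse, against 0 to 1.36 CPM in venous cells.

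**Figure D3:**
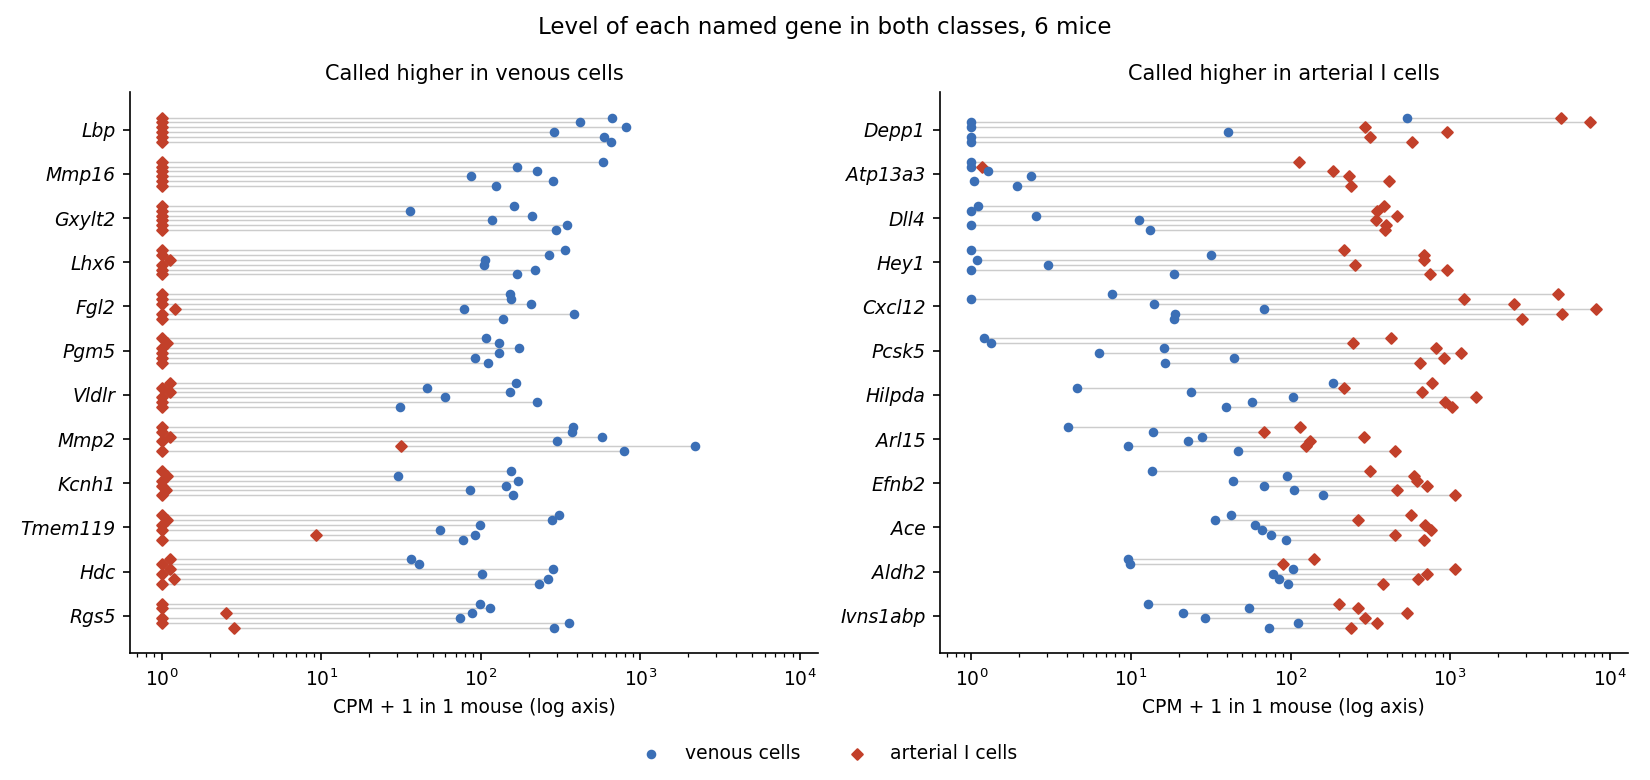
Level of the 12 named venous genes (left) and 12 named arterial genes (right) in each of 6 mice, as CPM + 1 on a log axis; circles are venous and diamonds arterial I cells, and a grey line joins both classes of a mouse. The arterial diamonds of the venous genes sit at or near 1 (0 CPM), except Mmp2 and Tmem119 in the female P7 mouse, and the arterial genes show higher diamonds than circles in all mice, except Atp13a3 in the male E18.5 mouse, where both are near 0 CPM.

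Several of the venous genes encode secreted or membrane proteins. Lbp (chr2:158306493-158332852), the plasma protein that hands bacterial lipopolysaccharide to CD14, lay between 286.5 and 817 CPM in venous cells (median 624). It had 55220 venous reads and 0 arterial reads, so its pooled level was at least 7330-fold higher in venous cells against a floor of 3 reads over the 6 mice. The adjusted p by edgeR was 0.000469. Fgl2, a fibrinogen-like protein that can act as a prothrombinase, averaged 184.2 ± 104.6 CPM in venous cells (SD, n = 6) against 1 arterial read. Hdc, the enzyme that makes histamine, lay between 35.4 and 283.3 CPM in venous cells and reached at most 0.192 CPM in arterial I cells, with an adjusted p of 0.000469 by edgeR. Its venous values were lowest in the E18.5 mice, at 35.4 and 40.1 CPM, and 100.97 to 283.3 CPM in the others. Vldlr, a receptor for lipoproteins and reelin, averaged 112.4 ± 78.3 CPM (SD, n = 6) with 2 arterial reads, and 29.3% of its venous reads came from 1 cell. At P21, in no test, its order was reversed, with 0.142 and 0.161 CPM in the venous cells of the female and male mouse. The 1 arterial I cell of the female P21 mouse had 170.5 CPM. Lbp kept its side there, at 885 and 1163 CPM in venous cells and 0 CPM in that arterial I cell. Gxylt2, which adds xylose to sugar on Notch receptors, averaged 193.9 ± 115.1 CPM (SD, n = 6) with 0 arterial reads, at least 2879-fold higher by the same floor.

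The matrix enzymes Mmp2 and Mmp16 and 3 of 15 tested elastic fibre genes were called higher in venous cells. Mmp2, the gelatinase A, lay between 301.3 and 2210.1 CPM in venous cells (median 473.9) and was at 0 to 0.128 CPM in the arterial I cells of 5 mice and 30.6 CPM in those of the female P7 mouse. The classes did not overlap, and the log2 difference was 11.11 ± 1.14 (SE) with an adjusted p of 0.000513 by edgeR. Mmp16, a membrane-bound protease of the same family, lay between 86.3 and 583 CPM with 0 arterial reads, at least 3048-fold higher in venous cells. The 3 elastic fibre genes were Eln, Mfap2 and Mfap5, none was called higher arterial, and 7 of the 15 were higher in venous cells in all 6 mice, as were 5.90% of all genes tested. The median log2 difference of the list was 1.56, against 0.45 for all genes.

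Eln (chr5:134702593-134747323), which encodes the elastin monomer, had 770, 2751 and 4626 CPM as lowest, median and highest venous value and 20.4, 165.8 and 1354 CPM in arterial I cells. Its ranges overlapped because the male P1 mouse had 1354 CPM in arterial I cells and 1357 CPM in venous cells, while the other 5 mice differed widely, and the adjusted p was 0.0254 by edgeR. The Eln call was lost without the block, at 0.129 by edgeR, and without any 1 of the 3 female mice or the male P7 mouse, at 0.0558 to 0.112. Mfap2 and Mfap5 encode proteins of the microfibrils on which elastin is laid down. Mfap2 averaged 1973 ± 798 CPM against 743 ± 479.3 CPM, and Mfap5 130.8 ± 78.998 CPM against 0.0140 ± 0.0344 CPM (SD, n = 6), with adjusted p values by edgeR of 0.0229 and 0.000821. The Mfap5 call was kept in all 13 alternative fits, and that of Mfap2 was lost without the block, at 0.178 by edgeR, and without the female E18.5, male P1 or male P7 mouse, at 0.0690 to 0.109. The fibulins Fbln2 and Fbln5 had venous means of 1366 ± 1186 and 2245 ± 1941 CPM against 181.6 ± 181.6 and 1089.59 ± 883 CPM (SD, n = 6) and were not called. In the list of basement membrane and matrix genes the small proteoglycan Bgn alone was called of 19 tested, at 445.3 ± 324.6 CPM in venous and 30.7 ± 42.1 CPM in arterial I cells (SD, n = 6). This call was lost in 7 of 13 fits by edgeR, at 0.0518 with CD31-gate cells alone, 0.0741 without the block and 0.0823 to 0.199 without any 1 mouse other than the male E18.5 mouse. Col4a1 and Col4a2, the main collagen chains of the basement membrane, had arterial means of 775 ± 467.2 and 774 ± 556 CPM against 307.6 ± 212.3 and 341.7 ± 112.98 CPM in venous cells (SD, n = 6), with adjusted p values by edgeR of 0.446 and 0.677.

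The growth factor Vegfc and the neuropilin Nrp2 were called higher in venous cells, and no gene of the list of VEGF, neuropilin and semaphorin genes was called higher arterial, with 13 tested. Vegfc, a ligand of the receptor VEGFR3, lay between 200.9 and 542 CPM in venous and between 0 and 49.3 CPM in arterial I cells, with an adjusted p of 0.0453 by edgeR. Without any 1 mouse other than the male E18.5 mouse this call was lost, at 0.0578 to 0.157 by edgeR. Nrp2, a co-receptor for VEGF-C and semaphorins, lay between 88.2 and 557 CPM in venous cells and was at 0 CPM in the arterial I cells of 4 mice, with 9.49 and 82.5 CPM in the female P1 and E18.5 mice and an adjusted p of 0.0490 by edgeR. Without the block its adjusted p was 0.401 by edgeR, and without the male E18.5, male P1 or either P7 mouse it was 0.0826 to 0.179. The related Nrp1 went the other way without being called, at 879 ± 338.5 CPM in arterial I and 375.1 ± 115.1 CPM in venous cells (SD, n = 6), in 6 of 6 mice, with an adjusted p of 0.122 by edgeR. The receptors Kdr and Flt1 were not called, with Kdr at 414.8 ± 224.6 CPM in venous and 438.4 ± 114.7 CPM in arterial I cells (SD, n = 6). The arterial semaphorin Sema3g averaged 114.5 ± 64.1 CPM against 3.06 ± 3.04 CPM (SD, n = 6), on the arterial side in 6 of 6 mice, with an adjusted p of 0.0516 by edgeR.

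Among the vasomotor genes, Ace was called arterial and Ptgs1 venous, of 14 tested. Ptgs1, which encodes the cyclooxygenase COX-1, lay between 94.7 and 482.5 CPM in venous cells (median 256.97) and was at 0 CPM in the arterial I cells of 4 mice, 2.04 CPM in the female E18.5 mouse and 72.95 CPM in the male P1 mouse. The adjusted p was 0.0410 by edgeR, and the call was lost without the block, at 0.341, and without any 1 mouse other than the male P1 mouse, at 0.0915 to 0.155. Ptgis, which makes prostacyclin, averaged 86.9 ± 69.4 CPM in venous and 6.75 ± 15.4 CPM in arterial I cells (SD, n = 6) and was not called. Nos3 and Edn1, which make nitric oxide and endothelin-1, were not called either, and each class was the higher one in 3 of 6 mice for Nos3. Rgs5, a brake on G-protein signals known as a pericyte marker, was called venous with 73.5 to 355.1 CPM against 0 to 1.86 CPM. In the same venous cells the 8 mural markers summed to 0.0975 to 28.1 CPM, with Pdgfrb at no more than 0.289 CPM, and to 0.136 to 43.5 CPM in arterial I cells. The venous cells of the female and male P21 mice, in no test, had 5.12 and 0 CPM of Rgs5.

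Slc6a2, the noradrenaline transporter, is a marker of lung veins and had too few samples with reads to pass the filter on low counts. Its venous levels were 7.71 and 0.112 CPM in the female and male E18.5 mice, 178.6 and 91.9 CPM at P1, and 567 and 543 CPM at P7, against 0 reads in all arterial I cells of these mice. The venous values were lowest at E18.5 and highest at P7 in both sexes, and the venous cells of the P21 mice, in no test, had 1815 and 2229 CPM. Over the 6 mice the pooled level was at least 3327-fold higher in venous cells by the floor of 3 reads. In a fit without the filter its adjusted p was 8.35e-07 by edgeR. Dropping the filter also changed the adjusted p values of genes tested in both fits, so those of that fit do not compare with the others given here. Of the other list genes not tested, 3 were called in that fit, which called 1.29% of its 16648 genes. Igfbp5, a binding protein of insulin-like growth factors, had 0 to 182.6 CPM in venous and at most 3.23 CPM in arterial I cells, with an adjusted p of 0.0168 by edgeR. Bmp2, a growth factor, had 0 to 83.5 CPM against at most 0.192 CPM, with 0.0445 by edgeR. Ackr4, a scavenging chemokine receptor, was on the arterial side in 6 of 6 mice, at 0.430 to 128.7 CPM against at most 0.102 CPM in venous cells, with 0.0253 by edgeR.

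Genes of clotting and its control lay on both sides. Anxa2, a surface partner of plasminogen activation, was called higher in venous cells at 2573 ± 827 CPM against 734 ± 273.04 CPM (SD, n = 6), with an adjusted p of 0.00439 by edgeR. Plat, the tissue plasminogen activator, was called higher in arterial I cells at 210.7 ± 228.5 CPM against 4.29 ± 9.003 CPM (SD, n = 6), with an adjusted p of 0.0204 by edgeR. Its arterial values ran from 0.421 and 6.38 CPM in the E18.5 mice to 108.3 to 500.6 CPM in the P1 and P7 mice. The Plat call was lost by limma, at 0.0753, without the block, at 0.137 by edgeR, and without the male P1 or either P7 mouse, at 0.0546 to 0.104. Vwf, von Willebrand factor, averaged 2412 ± 837 CPM in venous and 745 ± 842 CPM in arterial I cells (SD, n = 6) and was not called, with an adjusted p of 0.138 by edgeR. The male P1 mouse was the exception in direction, with 2384 CPM in arterial I and 1021 CPM in venous cells.

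Of the remaining venous markers, Cpe, a carboxypeptidase of peptide hormones, was called at 693 ± 477.4 CPM against 11.9 ± 17.8 CPM (SD, n = 6), with an adjusted p of 0.00696 by edgeR that was 0.0510 without the male P7 mouse. Bst1, a surface enzyme of NAD metabolism, was called at 55.7 ± 24.5 CPM against 3 arterial reads, with an adjusted p of 0.0160 by edgeR that was 0.0586 to 0.0851 without the female P1 or either P7 mouse. Pgm5, a junction protein related to phosphoglucomutase, varied little between mice, at 90.998 to 172.2 CPM in venous cells with 1 arterial read. Kcnh1, a voltage-gated potassium channel, lay between 29.5 and 169.01 CPM with 2 arterial reads. Tmem119, a membrane protein known from microglia, lay between 54.7 and 308.3 CPM in venous cells and was at 8.24 CPM in the arterial I cells of the female P7 mouse and at or near 0 in the other 5. Its call was lost without the female E18.5 mouse, at an adjusted p of 0.0544 by edgeR.

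Genes known to respond to tissue dissociation lay mostly on the venous side. Of 12 tested immediate early and stress genes, Ier3 was called higher in venous cells, at 1556 ± 469.2 CPM against 455.2 ± 295.6 CPM (SD, n = 6) with an adjusted p of 0.0238 by edgeR that was 0.0602 to 0.0990 without the female E18.5 or either P7 mouse. At an unadjusted p under 0.05, 8 of the 12 lay on the venous side and none on the arterial side, against 9.51% of all genes tested in either direction. The median log2 difference of the list was 1.24, against 0.45 for all genes. Fos was at 4123 ± 1444 CPM against 1907 ± 1696 CPM and Egr1 at 812 ± 269.1 CPM against 329.6 ± 116.7 CPM (SD, n = 6), each higher in venous cells in 6 of 6 mice, with adjusted p values by edgeR of 0.0698 and 0.0608. Their part in the other venous values was not tested.

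No member was called in the lists of Wnt genes (10 tested), Tie receptors and angiopoietins (4), BMP and TGF-beta genes (15), junction genes (11), IGF genes (7), sphingosine 1-phosphate genes (6), retinoic acid genes (7) and netrin, Slit and Robo genes (6), by edgeR at an adjusted p under 0.05. At an unadjusted p under 0.05 there were 0, 0, 6, 4, 2, 2, 2 and 2 such genes, against 9.51% of all genes tested. The netrin receptor Unc5b was closest, at 333.7 ± 188.5 CPM in arterial I and 9.20 ± 9.74 CPM in venous cells (SD, n = 6), on the arterial side in 6 of 6 mice with an adjusted p of 0.0533 by edgeR. Bmp4 averaged 185.7 ± 151.7 CPM in venous and 10.9 ± 20.4 CPM in arterial I cells (SD, n = 6), on the venous side in 6 of 6 mice with an adjusted p of 0.0705 by edgeR.

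The capillaries of the same mice were set beside both classes at P1 and P7, using the cells labelled Early Car4- capillaries. Of the 68 venous genes, 58 had a capillary mean between the arterial and venous means and 10 at or below the arterial mean, and 34 had a capillary mean under 10% of the venous mean. Of the 29 arterial genes, 27 had a capillary mean between the classes, and 5 under 10% of the arterial mean. The called genes were picked for a wide difference between venous and arterial I cells, partly in these same mice. Another class is thus likely to fall between them, and the share over all genes tested was not computed. These positions are a description and no test. The capillary mean of Guk1, guanylate kinase, was above its arterial mean, and that of Mecom, 14.04 CPM, was below its venous mean of 34.6 CPM. Dll4 was at 132.1 ± 40.7 CPM in capillaries (SD, n = 4), Hey1 at 122.7 ± 35.8 CPM, Efnb2 at 255.2 ± 58.9 CPM and Ace at 350.6 ± 74.8 CPM (SD, n = 4), and for each gene all 4 capillary values lay above all venous and below all arterial I values of these mice. Fgl2 was at 0.418 ± 0.762 CPM, Foxc1 at 0.186 ± 0.213 CPM and Slc6a2 at 0.0105 ± 0.00782 CPM in capillaries (SD, n = 4). Gxylt2 and Kcnh1 were the venous genes of the named set with the highest share kept in capillaries, at 94.3 ± 51.7 CPM and 67.6 ± 14.2 CPM (SD, n = 4).

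**Figure D4:**
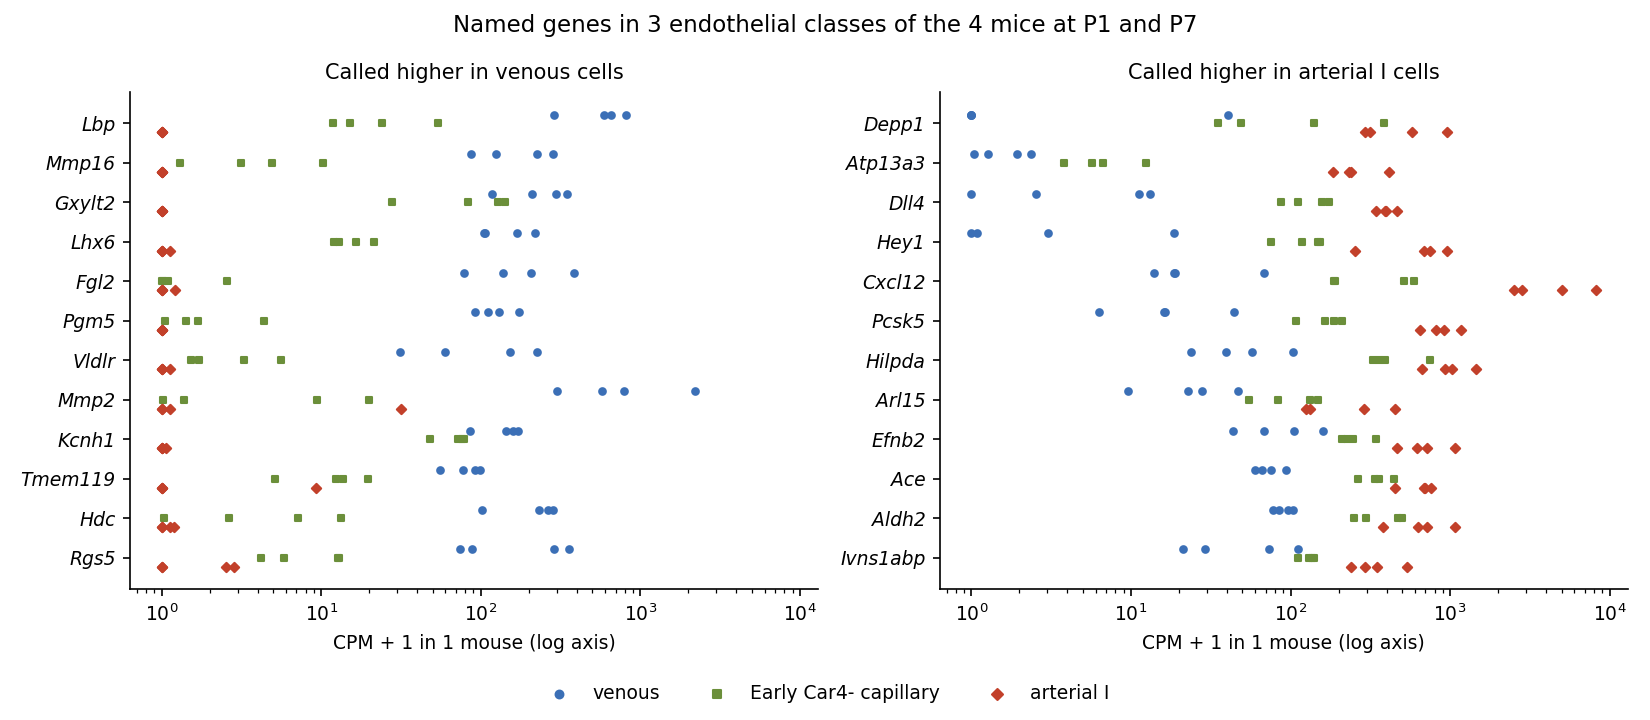
Level of the named genes in venous cells (circles), Early Car4- capillaries (squares) and arterial I cells (diamonds), as CPM + 1 on a log axis, with 1 symbol per mouse for the 4 mice at P1 and P7. The squares of the arterial genes lie between circles and diamonds for all 12 genes by their means, and the squares of Fgl2 and Pgm5 lie near the arterial level.

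The hyperoxia mice did not enter the comparison, although their cells were labelled along with the others, and nearly all called genes lay on the same side there. Of the 68 venous genes, 68 lay on the venous side in the female and 67 in the male hyperoxia mouse, the exception being Rasd2. Of the 29 arterial genes, 29 and 27 lay on the arterial side, the exceptions in the male mouse being Fermt3 and Mgll. Over all 9773 genes tested, 3494 lay on the venous side and 2016 on the arterial side in both hyperoxia mice. Lbp had 661 and 517.6 CPM in the venous cells of the female and male hyperoxia mice and 16.4 and 0 CPM in their arterial I cells. Cxcl12 had 5746 and 5099 CPM in arterial I cells and 18.4 and 6.59 CPM in venous cells. The contrast was smaller for other genes. Tmem119 had 92.7 CPM in venous and 68.1 CPM in arterial I cells of the female hyperoxia mouse. Hdc had 159.3 and 61.2 CPM in those of the male one. A test of the change in the class difference between hyperoxia and normal air at P7 called 0 of 9796 genes (0%) by edgeR, and 1.55% had an unadjusted p under 0.05 there. DESeq2 called 66 and limma 0. With 2 mice in each group, large changes of the difference could be missed as well as small ones. For Lbp the fitted change was -8.09 ± 3.93 on the log2 scale (SE) and was not called. The 0 calls therefore do not show that the difference was the same in hyperoxia.

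Whether the class difference itself changed with age was tested over E18.5, P1 and P7, with 2 mice each. The test called 1 of 9773 genes (0.0102%) by edgeR, and 2.09% had an unadjusted p under 0.05. For the step from E18.5 to P1 that share was 3.03%, and for the step from P1 to P7 it was 1.45%. The gene was Plac8, a small cysteine-rich protein first known from placenta. Its arterial I cells had 0 reads in both E18.5 mice, 400.3 and 175.4 CPM in the female and male P1 mice, and 506.4 and 369.1 CPM in those of P7. In the same order its venous cells had 123.1 and 387.3 CPM before birth, 442.9 and 619 CPM on P1, then 237.7 and 292.05 CPM on P7. So the arterial value was below the venous one in all mice up to P1 and above it in both P7 mice, as it was in both hyperoxia mice, with 662 and 721 CPM in arterial I and 129.7 and 271.7 CPM in venous cells. The difference fell by 13.91 ± 1.49 on the log2 scale (SE) from E18.5 to P1, a size that depends on the count added to the 0 values, and the adjusted p for age was 0.0302 by edgeR. The female E18.5 and P1 mice shared the DC code of their CD31-gate cells, as did the male E18.5 and P7 mice. In both pairs the arterial I value was 0 at E18.5 and above 0 at the later age, with 1 mouse per age in a pair. What part the groups behind this code have in the Plac8 values was not tested. The call was lost without either P7 mouse, at adjusted p values by edgeR of 0.197 without the female and 0.0811 without the male mouse.

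Next in the age test came Thbd, Procr, Gja4 and Ednrb, none of which was called; Gja4 had an adjusted p of 0.119 by edgeR. Thbd, thrombomodulin, the receptor that turns thrombin into an anticoagulant, was at 54.7 and 30.97 CPM in the arterial I cells of the E18.5 mice and at 869 to 1314 CPM in those of P1 and P7, with venous values of 1005 to 3686 CPM in all 6 mice. Its adjusted p for age was 0.0909 by edgeR. Procr, the partner receptor for protein C, was at 79.3 and 137.9 CPM in arterial I cells at E18.5, 47.95 and 37.01 CPM at P1 and 0 in both P7 mice, while its venous cells kept 268.98 to 735 CPM. Its adjusted p for age was 0.106 by edgeR. Ednrb, the endothelin receptor B, was at 3.94 and 0 CPM in arterial I cells at E18.5 and at 235.9 to 1002 CPM later, against 382.2 to 1736 CPM in venous cells, with an adjusted p of 0.236 by edgeR.

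**Figure D5:**
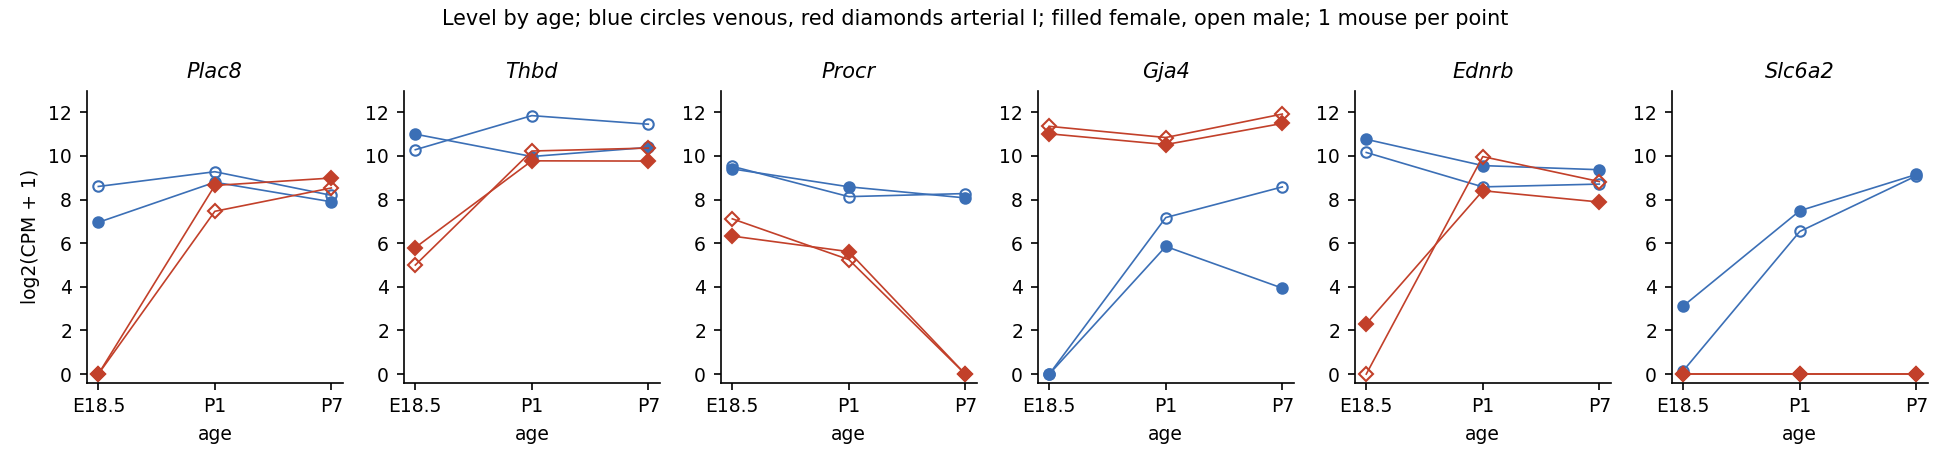
Level of 6 genes by age as log2(CPM + 1), with blue circles for venous and red diamonds for arterial I cells, filled symbols for female and open symbols for male mice, and 1 mouse per point; lines join different mice of the same sex. Plac8, Thbd and Ednrb are low in arterial I cells at E18.5 alone, Gja4 is at 0 in venous cells at E18.5, Procr is at 0 in arterial I cells at P7, and Slc6a2 is higher in venous cells at P7 than at E18.5.

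The share of venous cells among the venous and arterial I cells of the CD31 gate was 47.8% in the female E18.5 mouse and 11 of 25 cells in the male one, 53.1% and 83.3% at P1, and 54.5% and 85.2% at P7. At P21 it was 91.7% (11 of 12 cells, 95% Clopper-Pearson interval 61.5% to 99.8%) and 100% (2 of 2 cells, interval 15.8% to 100%). The means of E18.5 and P21 were 45.9% and 95.8%, and an exact permutation test over all assignments of mice to ages gave p = 0.0952, 2-sided. With the authors' Arterial EC II cells counted as arterial too, the means were 38.1% and 72.6%, at p = 0.152 in the same exact test. The male mice of P1 and P7 had the higher shares of their ages, and cells of 1 mouse are not independent, so the intervals cover counting error only.

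Venous cells held more detected genes than arterial I cells in 5 of 6 mice after each cell was thinned to 50000 reads, by 671 ± 699 genes in the median cell (SD, n = 6), with an exact sign-flip permutation p of 0.0625, 2-sided. With CD31-gate cells alone, thinned alike, it was 766 ± 611 genes, in 6 of 6 mice, at p = 0.03125 in the exact test. Without thinning the difference was 985 ± 983 genes, in 6 of 6 mice, at p = 0.03125 in the same exact test, which is the smallest it can give for 6 mice. Reads per cell were higher in venous cells in 5 of 6 mice, by 254391 ± 341939 reads in the median cell (SD, n = 6), with an exact permutation p of 0.125.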

How the data were processed

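The deposited table holds raw read counts per gene and cell, which the authors made with STAR 2.5.2b and HTSeq 0.10, per the submitters' processing notes. Those notes list GRCh38, a human build, for these mouse cells, so the build behind the counts is not known here. There are no molecular identifiers, so intervals and floors cover counting error only. How the subtype labels were made is not given in the sources used here.

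Counts were summed per mouse and label over 18072 genes, and 6 mice with at least 4 cells of both labels were kept. The test was edgeR 4.0.16's quasi-likelihood test (TMM, filterByExpr, mouse as a block, 5 residual degrees of freedom) on R 4.3.3, with Benjamini-Hochberg adjustment over all tested genes. The pairing comes from the labels: both classes of a pair are cells of 1 mouse. Age and treatment entered as interactions with class. Alternatives used DESeq2 1.42.0, limma 3.58.1, other scaling, no filter, thinning, the CD31 gate and leaving out mice. The named genes were the 12 per direction with the largest fitted difference among calls on 1 side in all 6 mice, with a mean of at least 100 CPM and reads in at least 50% of cells of the higher class, predicted, Riken, ribosomal, mitochondrial and pseudogene symbols left out. Members and lists were chosen with earlier results of these data known. No doublet call was made. The steps were tested on simulated data.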

Additional observations from a re-analysis of the deposited data

Results flagged for a closer look

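Atp13a3 stood apart in the male E18.5 mouse, where the difference of log2(CPM + 1), venous minus arterial I, was -0.22, while the nearest other mouse had -6.63. The gap was 0.762 of the whole range over 6 mice, above the limit of 0.625, a limit that chance passes in about 1 in 20 groups. The class difference of Plac8 differed between ages, by -13.91 on the log2 scale from E18.5 to P1, with an adjusted p for age of 0.0302 by edgeR.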

How the results depend on the processing

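The share of tested genes called between venous and arterial I cells, 0.993% by edgeR, moved with the setting: 1.29% with no filter on low counts, 10.5% by DESeq2, 2.98% by limma, 2.27% with cells thinned to 50000 reads, and 0.558% with mice of at least 10 cells of both labels, which is the fit without the male P7 mouse. Leaving out each mouse in turn gave 0.558% to 0.791%, with 56 genes called without the female E18.5, female P1 or female P7 mouse and 55 without the male P7 mouse, against 97. Without the replicate block, which pairs the classes of a mouse, 1.02% were called and 70 of the 97 remained. All 97 kept their direction in each alternative that tested them, 33 were called in each of the 13 distinct fits that tested them, and 18 of the 24 named genes were called in each alternative that tested them. The median log2 difference of all genes was 0.45, 0.57 with no filter, 0.31 with thinning and 0.03 without the block. For the age test, 1 gene in the main result, the count was 2 with RLE size factors, 45 with no filter, 54 by DESeq2, 3 by limma, 3 without the replicate block, 2 with thinning and 2 with mice of at least 10 cells. It was 1 to 9 with each mouse left out: 4 and 6 without the female and male E18.5 mice, 9 and 8 without those of P1, and 2 without the male P7 mouse. For hyperoxia, 0 in the main result, it was 13 with no filter and 66 by DESeq2. The difference in detected genes per cell, 671, was 985 without thinning, 766 with CD31-gate cells and up to 818.6 with each mouse left out, and was lowest without the male P1 mouse, at 63.2% of its value over 6 mice. The causes were not tested. Depth limits the male P7 mouse most, with 536433 arterial I reads from 4 cells.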
